A study of Mus musculus with 11 samples.

Results

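Of 25677 genes counted in these mouse kidneys, 31 were silent in the control mice and on in every MRL/lpr mouse. The members were chosen by these counts: genes with at most 5 counts in each of the 3 control kidneys and at least 30 counts in each of the 8 MRL/lpr kidneys. Marco and symbols that begin with Igh, Igk, Igl, Tra, Trb, Trg, Trd, H2-, Cd, Ccl, Cxcl, Klr or Gzm were not considered, which removed Cd300lf and Cd5l from 33 genes that met the limits. The controls (Ctr) were female C57BL/6J mice, labelled C57B6. The model group without DNase I (Lpr, 4 mice) and the treated group (DNase, 4 mice, injected into the peritoneum daily with DNase I from week 17 to week 21) were both female MRL/lpr mice, a strain that carries the lpr mutation of Fas and develops a lupus-like nephritis. Whole kidneys were taken at 21 weeks, with 1 library per mouse. DNase I digests DNA outside cells, and was given to remove the DNA webs that neutrophils release. Both strain and disease separate all MRL/lpr kidneys from all Ctr kidneys, and the effects of strain and disease cannot be told apart in any value below.

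A gene can be off in one kidney and on in another for different reasons. Leukocytes that enter an inflamed kidney bring the transcripts of genes that kidney cells do not use, and these can rise and fall with the number of such cells. Inbred strains also differ by variants that silence or switch on a gene in the same cells, and a transcript of that kind can stay at about 1 level in every animal of the strain. Neither pattern holds for every such gene, so the spread among kidneys does not assign a gene to either. In whole tissue, fewer cells of a type and less RNA per cell cannot be told apart.

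The libraries held 33469858 to 38460873 counts. Replicates are listed in order throughout, and CPM stands for counts scaled by library size and TMM factor. The leukocyte score, the mean log2 CPM of 27 general leukocyte genes (a 28th, Evi2b, was not used), lay at 2.09 to 2.66 in Ctr and at 4.41 to 5.42 in the MRL/lpr kidneys. The kidney's defining markers were present in every library, at a summed 27251 to 27967 CPM in Ctr and 12483 to 29530 CPM in MRL/lpr. Lpr replicate 3 stood apart, since its counts relative to the other kidneys changed by -0.43 log2 units per doubling of gene length, where the other kidneys lay between -0.0432 and 0.0835. Summed markers of fat ranged from 33.9 to 1344 CPM among the MRL/lpr kidneys and from 62.3 to 988 CPM in Ctr.

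The 31 genes together had 59, 36 and 50 counts in the Ctr kidneys. They had 3336, 4461, 3446 and 3280 counts in Lpr and 3468, 3511, 4843 and 3948 in DNase. The groups were separate by construction, so the difference from Ctr is a description. The ratio of MRL/lpr to Ctr, taken from summed scaled counts, had a median of 53.0 over the members and was at least 19.9 in each. The leukocyte score differed by 5.67-fold between the same kidneys, and the count limits alone hold the members' ratios near or above that size. By role, 5 members are genes of T lymphocytes and 6 of myeloid cells. A further 4 encode secreted proteins, 2 serve meiosis and 1 is a muscle filament protein, while 6 encode proteins of little known role and 7 are long noncoding RNAs. Between Lpr and Ctr, edgeR called 31 of 31 higher, where 4.65% of all genes tested were, and between DNase and Ctr 31 of 31, where 4.56% were. These calls follow from how the genes were chosen.

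**Figure D1:**
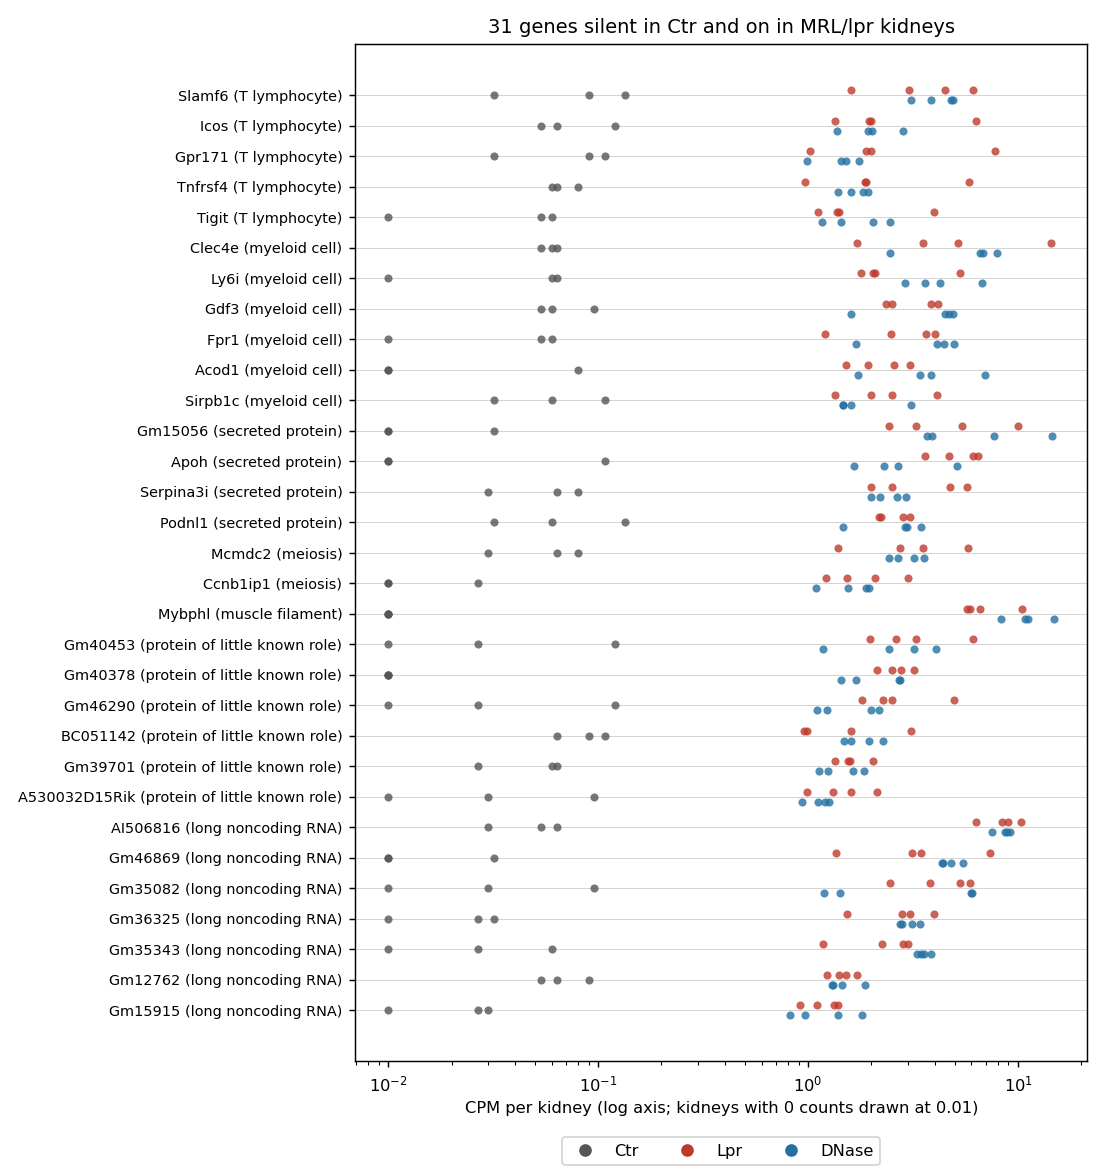
Each point is 1 kidney, at its CPM on a log axis, in rows for the 31 genes with their roles (grey Ctr, red Lpr, blue DNase; kidneys with 0 counts are drawn at 0.01). The grey points stand apart from the red and blue ones in every row by the rule that chose the genes, while the spread of red and blue differs between rows, from 1.52-fold in Gm12762 to 8.40-fold in Clec4e.

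The promoters of 5 members are shown because these genes stand for the patterns described below. AI506816 and Gm12762 are noncoding RNAs at a near constant level in MRL/lpr, Mybphl has the highest level of those with no count in Ctr, Tigit follows the leukocyte score most closely and Clec4e varied most. The sequences run from 250 bases before to 50 after a transcription start in RefSeq, build GRCm38.p6, which is the C57BL/6J genome. For Tigit the start used lies inside the listed span of the gene, and for the other 4 it is the gene's outer end. The MRL sequence was not analysed here. The windows are chr5:23712618-23712917 (minus strand) for AI506816, chr7:34234274-34234573 (minus) for Gm12762, chr3:108364661-108364960 (plus) for Mybphl, chr16:43664135-43664434 (minus) for Tigit and chr6:123289822-123290121 (minus) for Clec4e. Capitals mark matches on either strand to the motifs searched: the GC box GGGCGG in AI506816, the TATA box TATAAA and the GC box in Gm12762, the NF-kappaB site (GGGA and CC with any 4 bases between) in Mybphl, and the TATA box and CCAAT box CCAAT in Clec4e.
AI506816: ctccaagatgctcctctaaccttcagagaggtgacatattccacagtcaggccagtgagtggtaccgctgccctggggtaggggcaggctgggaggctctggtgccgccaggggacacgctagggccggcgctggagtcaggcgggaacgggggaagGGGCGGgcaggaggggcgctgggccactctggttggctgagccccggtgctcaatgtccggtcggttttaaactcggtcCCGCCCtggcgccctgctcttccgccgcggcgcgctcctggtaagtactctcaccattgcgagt
Gm12762: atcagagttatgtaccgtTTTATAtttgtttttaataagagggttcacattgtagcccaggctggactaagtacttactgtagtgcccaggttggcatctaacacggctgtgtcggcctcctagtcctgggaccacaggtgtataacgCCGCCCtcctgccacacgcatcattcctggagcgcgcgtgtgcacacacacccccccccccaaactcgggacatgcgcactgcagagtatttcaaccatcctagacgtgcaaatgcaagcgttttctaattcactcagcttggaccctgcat
Mybphl: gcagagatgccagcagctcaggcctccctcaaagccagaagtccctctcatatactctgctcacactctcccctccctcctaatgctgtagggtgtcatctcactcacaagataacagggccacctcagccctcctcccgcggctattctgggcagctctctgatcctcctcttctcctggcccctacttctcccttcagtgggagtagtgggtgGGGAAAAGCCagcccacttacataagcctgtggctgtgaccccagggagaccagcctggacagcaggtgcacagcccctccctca
Tigit: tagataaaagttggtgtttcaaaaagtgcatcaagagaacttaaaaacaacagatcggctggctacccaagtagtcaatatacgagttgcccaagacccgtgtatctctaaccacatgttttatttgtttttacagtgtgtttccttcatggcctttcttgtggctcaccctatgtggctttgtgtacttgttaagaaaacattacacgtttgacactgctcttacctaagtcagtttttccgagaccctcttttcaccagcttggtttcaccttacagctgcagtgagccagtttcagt
Clec4e: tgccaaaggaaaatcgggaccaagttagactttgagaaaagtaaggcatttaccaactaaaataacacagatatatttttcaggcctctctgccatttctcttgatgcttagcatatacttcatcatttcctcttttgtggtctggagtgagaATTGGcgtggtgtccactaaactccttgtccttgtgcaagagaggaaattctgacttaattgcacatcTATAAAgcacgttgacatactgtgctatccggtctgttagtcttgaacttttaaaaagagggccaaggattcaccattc
Of the 31 members, 23 had a promoter in the table. The TATA box letters were in 6 of the 23, against 13.6% of 32851 promoter windows of the same length. The GC box was in 3 (35.7% of all windows), the CCAAT box in 11 (37.4%), the ETS core AGGAAG in 7 (35.4%) and the NF-kappaB site in 4 (20.7%). The interferon-stimulated response element (a pair of GAAA runs with any 2 bases between) was in 1 (3.44%) and the AP-1 site TGANTCA in 2 (7.81%). The 23 windows had a median of 4 CG dinucleotides and 47% GC, against 7 and 52.7% over 27025 genes. AI506816 stood at the upper end with 21 CG dinucleotides and Serpina3i at the lower end with 0. A match is a run of letters only, and the absence of a match in a window says nothing of the factor.

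The T lymphocyte genes were Icos, Tigit, Slamf6, Tnfrsf4 and Gpr171. Icos (chr1:60960773-61000322), the costimulatory receptor of activated and follicular helper T cells, had 2, 2 and 4 counts in Ctr, 71, 242, 65 and 47 in Lpr and 50, 74, 113 and 75 in DNase. Tigit (chr16:43626137-43665125), an inhibitory receptor of T and NK cells, had 2, 0 and 2 counts in Ctr, 50, 153, 37 and 48 in Lpr and 42, 75, 98 and 56 in DNase. In both genes Lpr replicate 2 was the highest kidney, 1 of the other 3 Lpr kidneys lay below all DNase kidneys, and the groups overlapped. Slamf6 (chr1:171917458-171948958), a homophilic receptor of T, B and NK cells, had 5, 1 and 3 counts in Ctr, 108, 234, 53 and 158 in Lpr and 112, 142, 192 and 190 in DNase. Tnfrsf4, which encodes the costimulatory receptor OX40, had 3, 2 and 2 counts in Ctr, 66, 223, 63 and 34 in Lpr and 58, 51, 77 and 71 in DNase. Gpr171, a G protein-coupled receptor found on T cells, had 4, 1 and 3 counts in Ctr, 71, 298, 63 and 36 in Lpr and 36, 56, 57 and 68 in DNase. All 5 were highest in Lpr replicate 2, the kidney with the highest leukocyte score (5.42). Among the 8 MRL/lpr kidneys the 10 pairs of these genes had a median Pearson r of 0.73, against 0.03 over the 465 pairs of members. Gpr171 and Tnfrsf4 were closest (r = 0.94), with Lpr replicate 2 far above the other kidneys in both.

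The summed defining markers of T cells, 8 genes with none at 0, lay at 5.81 to 8.13 CPM in Ctr, 82.0 to 178 CPM in Lpr and 79.6 to 126 CPM in DNase, with the highest value in Lpr replicate 2. Their part in the T lymphocyte members was not tested. Of 60 T cell genes on a list written by hand, all of which were measured, 16 had at most 5 counts in every Ctr kidney and 40 had at least 30 in every MRL/lpr kidney. The 4 members on it are Icos, Tigit, Slamf6 and Tnfrsf4. Of the other list genes tested, 46 of 54 were called higher and 0 lower in Lpr against Ctr, and 44 of 54 higher in DNase against Ctr.

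The myeloid genes were Clec4e, Fpr1, Acod1, Sirpb1c, Gdf3 and Ly6i, and they did not share 1 high kidney. Clec4e (chr6:123281789-123289871) encodes Mincle, a lectin receptor of macrophages for mycobacterial glycolipids and products of dead cells. It had 2, 2 and 2 counts in Ctr, 61, 135, 479 and 181 in Lpr and 89, 251, 263 and 309 in DNase, and Lpr replicate 3 was the highest kidney. Fpr1 (chr17:17876471-17883939), the formyl peptide receptor of neutrophils and monocytes, had 2, 0 and 2 counts in Ctr, 43, 95, 134 and 128 in Lpr and 61, 164, 198 and 160 in DNase. Acod1 (chr14:103047012-103056573), whose enzyme makes itaconate in activated macrophages, had 3, 0 and 0 counts in Ctr, 91, 58, 64 and 108 in Lpr and 63, 125, 278 and 150 in DNase. Fpr1 and Acod1 were highest in DNase replicate 3, and their Lpr and DNase values overlapped. Gdf3, a ligand of the TGF-beta family, had 2, 3 and 2 counts in Ctr, 89, 159, 128 and 83 in Lpr and 58, 165, 186 and 191 in DNase. Ly6i, a small surface protein of myeloid cells, had 0, 2 and 2 counts in Ctr, 74, 78, 176 and 63 in Lpr and 130, 107, 268 and 166 in DNase. Sirpb1c, a signal-regulatory receptor of myeloid cells, had 4, 1 and 2 counts in Ctr, 71, 157, 83 and 47 in Lpr and 53, 59, 123 and 57 in DNase. Its transcript was 98.5% identical to that of Sirpb1b over 99.8% of its length, so the split of reads between the pair is uncertain. Of the 25 members with a transcript in the reference set, Sirpb1c alone had a copy of that kind.

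The summed macrophage markers, 6 genes with none at 0, lay at 153 to 214 CPM in Ctr, 947 to 1910 CPM in Lpr and 720 to 1407 CPM in DNase. The summed neutrophil markers lay at 1.92 to 5.12 CPM in Ctr, 14.9 to 35.8 CPM in Lpr and 13.0 to 23.8 CPM in DNase, with Ly6g at or near 0. Their part in the myeloid members was not tested. Of the macrophage and monocyte genes on a hand-written list other than Clec4e and Fpr1, 36 of 53 tested were called higher and 0 lower in Lpr against Ctr. Of the neutrophil genes other than Acod1, 4 of 16 were called higher and 0 lower. The lists of B cells and plasma cells held no member.

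Of the 4 secreted proteins, Gm15056, which RefSeq lists under the name of a beta-defensin, had the highest level per length of all members, at a mean of 8.09 FPKM over the MRL/lpr kidneys. It had 0, 1 and 0 counts in Ctr, 357, 93, 179 and 115 in Lpr and 134, 143, 578 and 299 in DNase, a 5.98-fold range of CPM among MRL/lpr kidneys. Its ratio to Ctr, 658, rests on 1 Ctr count and had a 95% counting interval that began at 118. Apoh (chr11:108395297-108414396), the plasma glycoprotein that antiphospholipid antibodies bind, had 4, 0 and 0 counts in Ctr, 230, 235, 120 and 164 in Lpr and 186, 61, 92 and 104 in DNase. The kidneys with little Apoh were mostly DNase kidneys, but DNase replicate 1 lay among the Lpr kidneys. No other gene of the liver that was examined went from silent in Ctr to at least 30 counts in every MRL/lpr kidney. Alb had 335 to 569 counts in Ctr and 69 to 259 in MRL/lpr, and Ttr 1325 to 1495 and 13 to 67. Fga overlapped, at 660 to 1051 in Ctr and 429 to 1287 in MRL/lpr, and Ahsg had 4, 0 and 0 in Ctr and 0 to 22 in MRL/lpr. Serpina3i, a serine protease inhibitor, had 3, 2 and 1 counts in Ctr, 168, 218, 66 and 88 in Lpr and 106, 81, 79 and 103 in DNase. Part of its transcript closely matched that of Serpina3g, a more abundant gene described below, so its counts are uncertain. Podnl1, a small leucine-rich proteoglycan of the matrix, had 5, 1 and 2 counts in Ctr, 79, 117, 72 and 99 in Lpr and 53, 106, 138 and 115 in DNase. Podnl1 followed the leukocyte score (r = 0.82 over the 8 MRL/lpr kidneys), with 0.76 to 0.93 when any 1 kidney was left out. For Gm15056 r was 0.01, but 0.65 without Lpr replicate 2 and -0.39 without DNase replicate 3.

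Mybphl (chr3:108364911-108380057), a myosin-binding protein known from the atria of the heart, had no count in any Ctr kidney. It had 211, 220, 218 and 366 counts in Lpr and 539, 396, 331 and 436 in DNase, at least 104-fold over a floor of 3 counts per Ctr library. All MRL/lpr kidneys were far above the floor, and Lpr replicate 4 overlapped with the DNase kidneys. Its mean of 7.37 FPKM was second to that of Gm15056. No other gene of heart muscle that was examined went from silent in Ctr to at least 30 counts in every MRL/lpr kidney. The atrial genes Myl4 and Myl7 were present in both strains, with 18 to 32 and 32 to 83 counts in Ctr and 23 to 71 and 8 to 62 in MRL/lpr. Tnni3 had 1 to 5 counts in Ctr and 4 to 20 in MRL/lpr, Nppa at most 1 in every kidney, Mybpc3 at most 6, and Myh6, Myh7 and Tnnt2 at most 13. The skeletal muscle marker Acta1 had 110 to 422 counts in Ctr, 118 to 196 in Lpr and 29 to 97 in DNase, so it was lowest in the group with the higher mean of Mybphl.

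The meiosis genes were Ccnb1ip1, a ubiquitin ligase that sets crossovers, and Mcmdc2, which is needed for the repair of meiotic breaks. Ccnb1ip1 (chr14:50789249-50795728) had 1, 0 and 0 counts in Ctr, 74, 59, 99 and 43 in Lpr and 71, 40, 75 and 60 in DNase. Mcmdc2 (chr1:9906157-9943606) had 3, 2 and 1 counts in Ctr, 125, 53, 192 and 96 in Lpr and 88, 117, 107 and 139 in DNase. Both were highest in Lpr replicate 3, and the Lpr and DNase values overlapped. Mcmdc2 shares 1582 bases with Snhg6 on the other strand, which had 263, 313 and 243 counts in Ctr and 108 to 295 in MRL/lpr. The sum of Mcmdc2 and Snhg6 was 8.17 ± 1.64 CPM in Ctr (SD, n = 3) and 7.69 ± 2.97 CPM in MRL/lpr (SD, n = 8). Without the strand setting their reads cannot be told apart, and a shift of reads between them was not tested. Of the other genes of meiosis examined, Sycp1 and Dmc1 had at most 2 counts in every kidney and Tex11 at most 3. Stag3 had 2, 0 and 2 counts in Ctr and 2 to 8 in MRL/lpr. Spo11 had 0, 2 and 3 counts in Ctr, 1, 13, 4 and 12 in Lpr and 3, 16, 14 and 6 in DNase, and Sycp3 had 8, 0 and 4 in Ctr and 0 to 23 in MRL/lpr. None of these 6 genes reached 30 counts in any kidney.

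The long noncoding RNAs and the proteins of little known role make up 13 members. AI506816 (chr5:23692261-23712667, minus strand) had 2, 2 and 1 counts in Ctr, 224, 320, 299 and 362 in Lpr and 331, 319, 352 and 293 in DNase, or 8.51 ± 1.18 CPM (SD, n = 8) over MRL/lpr. Gm12762 (chr7:34231182-34234323, minus strand) had 2, 2 and 3 counts in Ctr, 50, 58, 41 and 60 in Lpr and 47, 69, 58 and 51 in DNase, or 1.47 ± 0.220 CPM (SD, n = 8). Gm39701 (chr1:170945108-170949763) had 1, 2 and 2 counts in Ctr, 55, 61, 68 and 47 in Lpr and 67, 46, 65 and 44 in DNase. These 3 had the narrowest ranges of all members, and the Lpr and DNase values overlapped. Gm40378 had no count in Ctr, 113, 106, 71 and 88 in Lpr and 61, 101, 57 and 105 in DNase, at least 26.97-fold over the floor. Gm46869 had 0, 1 and 0 counts in Ctr, 111, 281, 45 and 121 in Lpr and 198, 176, 174 and 170 in DNase, so that Lpr ranged widely and DNase did not. Gm35082 had 0, 3 and 1 counts in Ctr, 209, 202, 82 and 134 in Lpr and 216, 44, 240 and 55 in DNase. DNase replicates 2 and 4 were low in Gm35082, and replicates 1 and 3 as high as the highest Lpr kidneys. Gm36325 had 59 to 141 counts in MRL/lpr and at most 1 in Ctr. BC051142 had 33 to 118 counts in MRL/lpr, A530032D15Rik 34 to 82 and Gm15915 32 to 72. Gm40453 and Gm46290 had 46 to 202 and 43 to 174. The transcript of A530032D15Rik matched that of Sp140 at 98.5% identity over 68.2% of its length, so its counts are uncertain as well.

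How much each gene varied among the 8 MRL/lpr kidneys was described by the ratio of the highest to the lowest CPM and by Pearson's r with the leukocyte score. These points share their libraries, and no test was made. A ratio of at most 2 was held by 3 of 31 members, which were Gm12762 (1.52), AI506816 (1.63) and Gm39701 (1.81). That is 9.68%, against 52.5% of the 13221 genes with at least 30 counts in every MRL/lpr kidney and 34.0% of the 3059 of these in the members' range of mean counts. An r of at least 0.7 was held by 6 of 31, or 19.4%, against 3.00% and 4.64% of the same background genes. The 6 were Tigit (0.94), Icos (0.88), Podnl1 (0.82), Sirpb1c (0.74), Gpr171 (0.72) and Slamf6 (0.72). Without Lpr replicate 2, Tigit kept 0.87 and Icos 0.77, while Slamf6 had 0.61, Sirpb1c 0.48 and Gpr171 0.23, Tnfrsf4 went from 0.68 to 0.14, and Acod1 went from 0.25 to 0.98. The 11 members with T lymphocyte or myeloid roles had a median r of 0.68, and 5 of them followed the score and 0 were steady. The 20 with other roles had a median r of 0.04, and 1 followed the score and 3 were steady. Of these 20, 16 did neither, as did 6 of the 11, so most members fell in neither class. Gm36325 (-0.61), Mcmdc2 (-0.60) and Mybphl (-0.49) had the lowest r. Without Lpr replicate 2 these were 0.09, -0.14 and -0.22, and Apoh (-0.62) was lowest, so this order rests on that kidney. In summed CPM, the members with leukocyte roles ranged from 20.7 to 47.8 over the MRL/lpr kidneys and the others from 60.9 to 75.0.

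**Figure D2:**
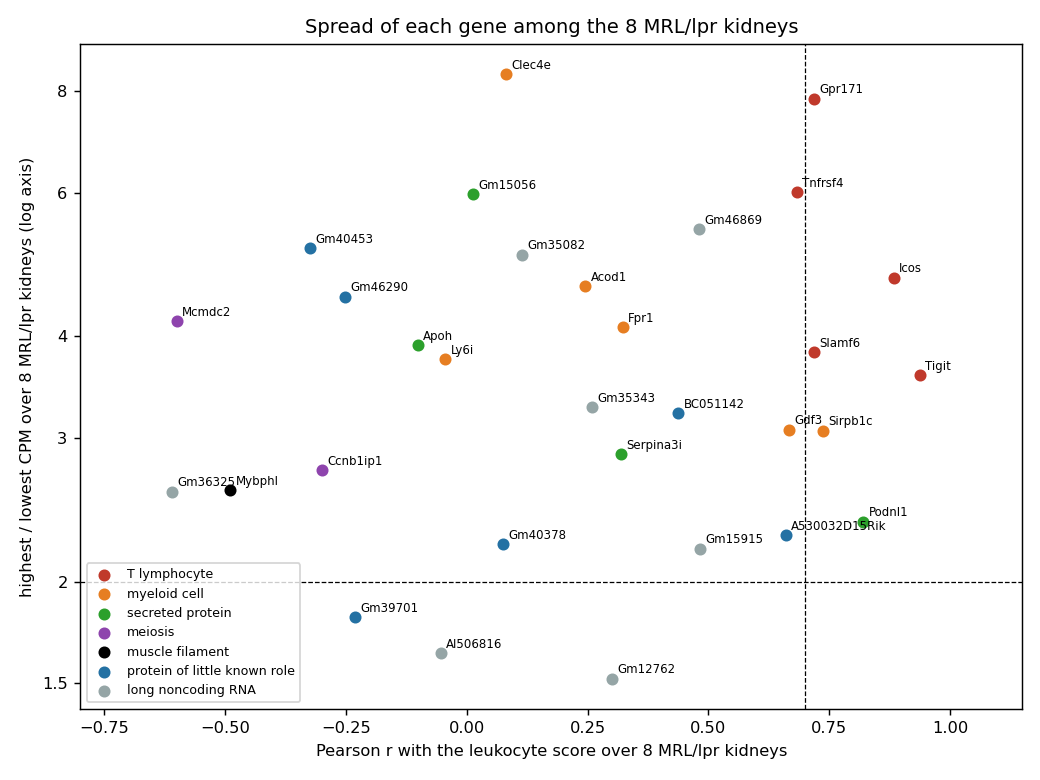
Each point is 1 of the 31 genes, coloured by role. The horizontal axis gives Pearson's r between the gene's log2 CPM and the leukocyte score over the 8 MRL/lpr kidneys. The vertical log axis gives the ratio of the gene's highest to its lowest CPM in these kidneys. Dashed lines mark r = 0.7 and a ratio of 2: the T lymphocyte genes (red) lie at the right, at r of 0.68 to 0.94 (0.14 to 0.87 without Lpr replicate 2), and only Gm12762, AI506816 and Gm39701 lie under the lower line.

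Genes beside a member on the chromosome were then examined, since the rule did not read them. The nearest listed gene on either side gave 60 neighbours, none of them a member. Of the 40 tested between Lpr and Ctr with edgeR's quasi-likelihood test, 9 were called higher and 1 lower, or 25% against 5.78% of all genes tested. Between DNase and Ctr, 9 of 39 were called higher and 1 lower, or 25.6% against 6.01%, and these comparisons share the Ctr kidneys. Beside members with T lymphocyte or myeloid roles, 7 of 15 were called higher in Lpr and 0 lower. They were Clec4d beside Clec4e, Fpr2 beside Fpr1, Apobec1 beside Gdf3, Ctla4 beside Icos, Cd84 beside Slamf6, and Sirpb1b and Gm5150 on either side of Sirpb1c. Sirpb1b is the near-identical copy of Sirpb1c described above, so its counts may hold reads of that member and its call is not separate from it. Beside members with other roles, 2 of 25 were called higher, Serpina3g beside Serpina3i and Gm38510 beside A530032D15Rik, and 1 lower. Fpr2, a second formyl peptide receptor, had a mean of 0.102 CPM in Ctr and 6.19 ± 3.16 CPM in Lpr (SD, n = 4), a log2 fold change of 5.82 (SE 0.72). Serpina3g, of the same inhibitor cluster as Serpina3i, rose from 2.93 to 92.0 CPM (log2 fold change 4.98, SE 0.43). The transcript of Serpina3i matched that of Serpina3g at 95.6% identity over 23.9% of its length. Some reads may therefore be shared, and the call of Serpina3g may not be separate from that member. Ctla4, the inhibitory receptor of T cells, ranged from 0.331 to 5.76 CPM among the Lpr kidneys and was highest in Lpr replicate 2. The genes on either side of Mybphl were not called (Sort1, log2 fold change -0.58, adjusted p = 0.36, and Psrc1, 2.17, adjusted p = 0.058, edgeR). Without Ctr replicate 2, 5 neighbours were called higher, 4 of them beside members with leukocyte roles.

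**Figure D3:**
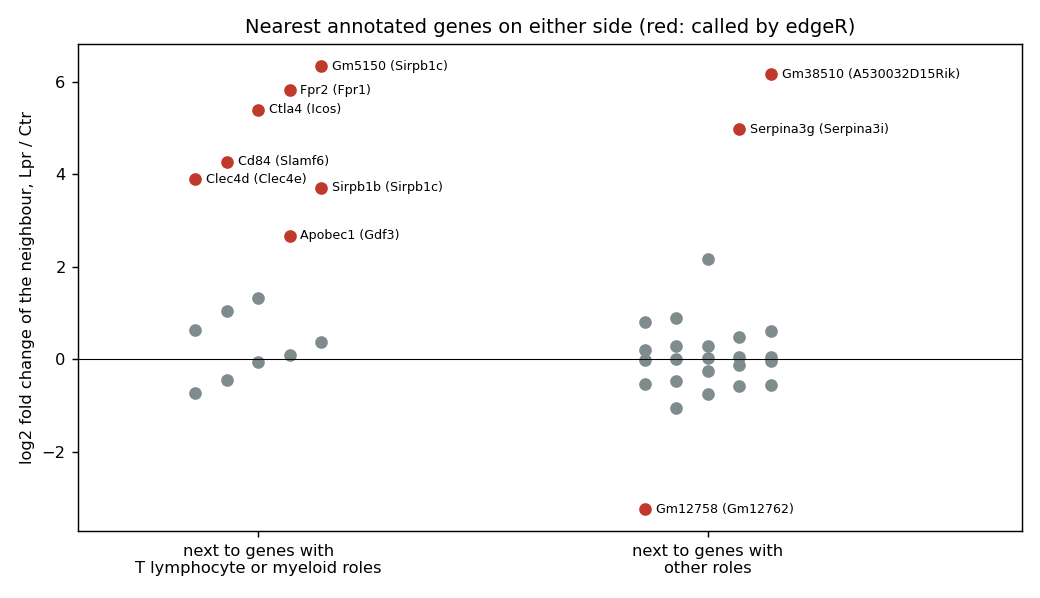
Each point is 1 of the 40 tested genes next to a member, at its log2 fold change between Lpr and Ctr (edgeR), split by the role of the member and drawn red where called, with the member in brackets. Of 15 neighbours of members with T lymphocyte or myeloid roles 7 are red and above 0, and of the 25 others 2 are red above 0 and 1, Gm12758, is red below 0.

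At 2 of the steady noncoding RNAs an adjoining gene was lower in MRL/lpr by about as many counts as the member was higher. AI506816 shares 3888 bases with Gm42226, annotated as protein coding on the same strand. Gm42226 had 356, 354 and 403 counts in Ctr, 127, 135, 31 and 99 in Lpr and 92, 114, 102 and 127 in DNase, so that every MRL/lpr kidney was below every Ctr kidney. Its log2 fold change was -2.01 (SE 0.41, adjusted p = 0.017, edgeR) in Lpr and -1.93 (SE 0.16, adjusted p = 4.2e-05) in DNase, which is just short of the fold limit of a call. The sum of both genes was 11.0 ± 1.29 CPM in Ctr (SD, n = 3) and 11.3 ± 1.08 CPM in MRL/lpr (SD, n = 8), a ratio of 1.03. Gm12758 starts 54 bases from Gm12762 on the other strand and had 61, 56 and 42 counts in Ctr, 5, 9, 5 and 4 in Lpr and 8, 11, 10 and 4 in DNase. Its log2 fold change was -3.25 (SE 0.40, adjusted p = 0.0016, edgeR) in Lpr and -2.82 (SE 0.37) in DNase. The sum of this pair was 1.63 ± 0.257 CPM in Ctr (SD, n = 3) and 1.66 ± 0.259 CPM in MRL/lpr (SD, n = 8), a ratio of 1.02. Of the 49 pairs of a member and an adjoining or overlapping gene that were tested in both comparisons, 3 had the other gene lower at an adjusted p under 0.05 in both. In the remaining pair, Gm15915 and Ntn4, the sum was not constant (ratio 0.608). How reads in shared or facing bases were assigned is not given in the sources used here, and whether these pairs are a shift of reads between gene models was not tested. In all, 14 members overlap a listed gene, 2 of them on the same strand, and without the strand setting the reads of such genes cannot be told apart. These pairs were picked after their values were seen.

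**Figure D4:**
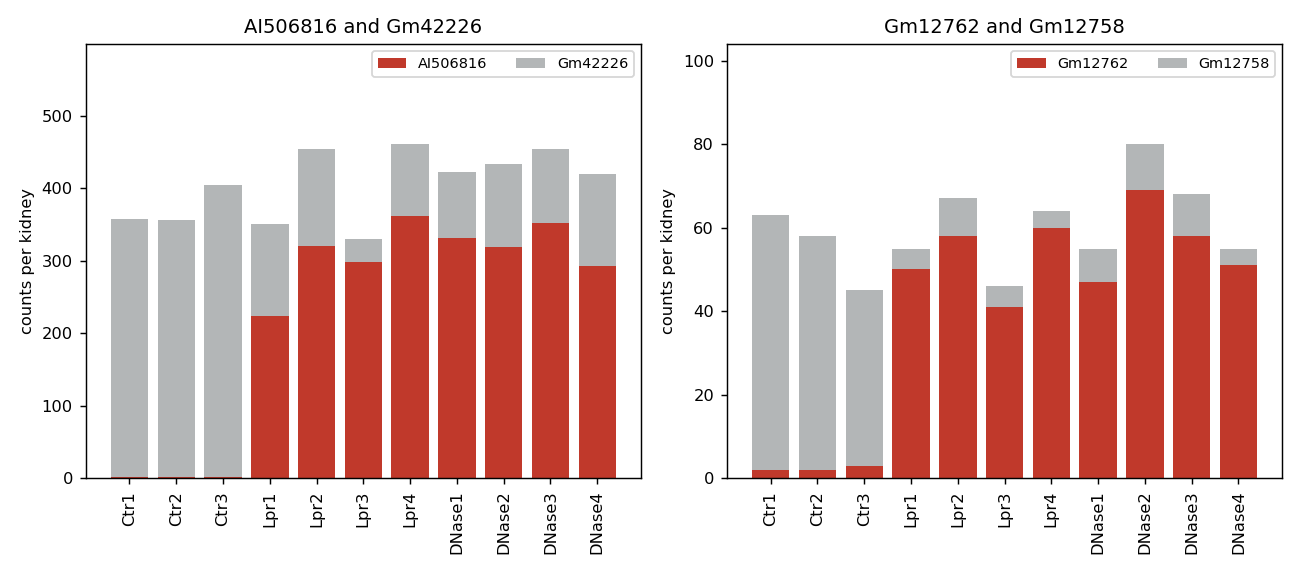
Stacked bars give the counts of the member (red) and of the adjoining gene (grey) in each of the 11 kidneys, for AI506816 with Gm42226 and for Gm12762 with Gm12758. The grey part fills nearly the whole bar in the 3 Ctr kidneys and the red part most of it in the 8 MRL/lpr kidneys, while the full bars lie between 330 and 461 counts in the first panel and between 45 and 80 in the second.

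The rule did not use the difference between DNase and Lpr, but by asking for 30 counts in every kidney of both groups it left out genes that were low in either group. Genes that met the limits in 1 of the groups alone, 7 in Lpr and 25 in DNase, are therefore not among the members, and the values below describe only genes that were on in both. Between DNase and Lpr, edgeR called 0 of 31 members, where 0% of 15832 genes tested were called. DESeq2 also called 0 of the 31 members, and its share over all genes is not given here. The paper, whose methods name DESeq2, reported genes called in both directions for this comparison. The log2 fold changes lay between -1.15 and 0.82, with a median of -0.05 against -0.02 over all genes, and 15 members were higher and 16 lower in DNase. At an unadjusted p under 0.05, 1 member was higher (2.17% of all genes were) and 1 lower (3.43%). Mybphl was the higher one, at 7.16 ± 2.20 CPM in Lpr and 11.3 ± 2.70 CPM in DNase (SD), a log2 fold change of 0.67 (SE 0.25, adjusted p = 0.85, edgeR). Apoh was the lower one, at 5.22 ± 1.33 CPM in Lpr and 2.94 ± 1.52 CPM in DNase (SD), a log2 fold change of -0.82 (SE 0.36, adjusted p = 0.85, edgeR). Neither difference passed the correction over all genes.

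Gm35343 was the only member with every DNase kidney above every Lpr kidney, a pattern held by 1.92% of all genes, and 0 members had the opposite one, held by 1.87%. It had 106, 109, 39 and 79 counts in Lpr and 129, 127, 153 and 128 in DNase (log2 fold change 0.62, SE 0.29, adjusted p = 0.85, edgeR). Lpr replicate 3, the library set apart by gene length, was lowest, at 1.17 CPM against 2.25 to 2.98 CPM in the other Lpr kidneys. The log2 fold change of Gm35343 lay at 0.39 to 0.77 with any 1 library left out. Gm35343 also overlaps Ermard on the other strand. Gpr171 had the largest fall in fitted value, a log2 fold change of -1.15 with an SE of 0.57, which was -0.20 without Lpr replicate 2. Of the T lymphocyte genes 4 of 5 had a value below 0, and of the myeloid genes 4 of 6 a value above 0, none past the test. The T lymphocyte values lean on Lpr replicate 2, the highest kidney in all 5. In Icos and Tigit the other Lpr kidneys lay at 1.34 to 2.00 and 1.11 to 1.41 CPM, below the DNase means of 2.04 and 1.77 CPM. In Tnfrsf4 they lay at 0.967 to 1.89 CPM, around a DNase mean of 1.69 CPM. AI506816 differed least (0.02, SE 0.19), followed by Gm12762 (0.03, SE 0.25).

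**Figure D5:**
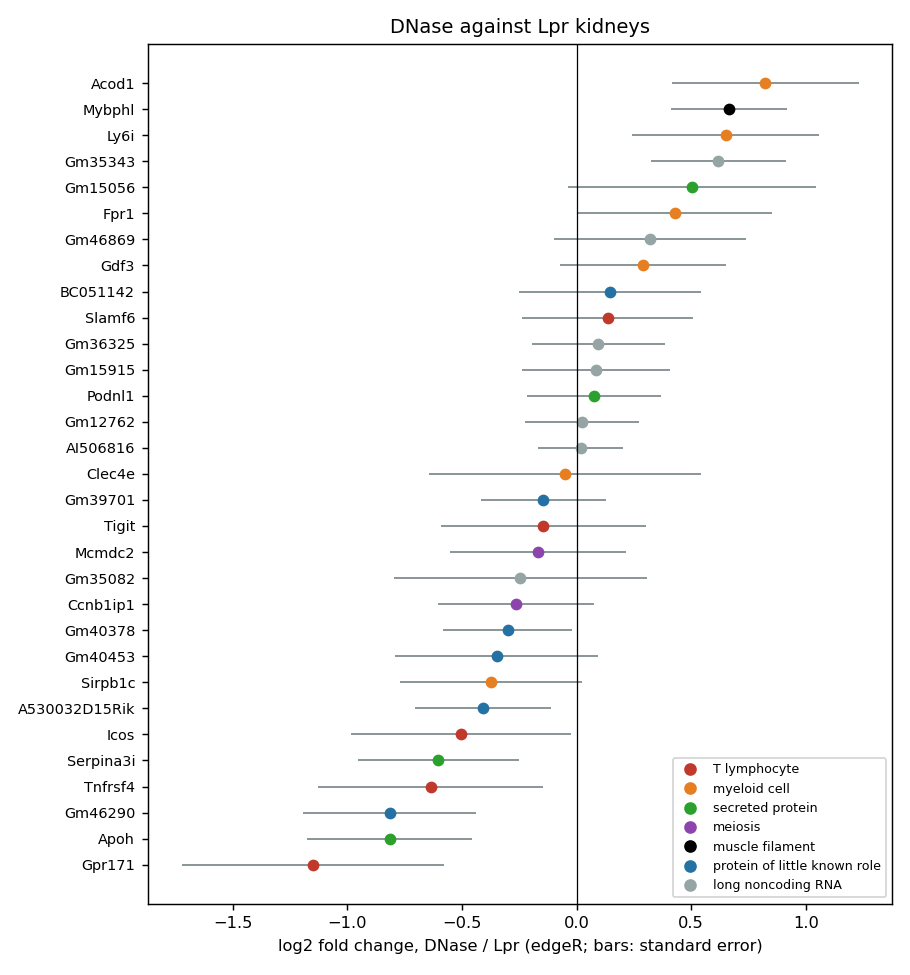
Points are the log2 fold changes of the 31 genes between DNase and Lpr kidneys (4 each, edgeR), coloured by role, and bars are standard errors. Values run from -1.15 (Gpr171) to 0.82 (Acod1), and 0 of 31 passed the adjusted test.

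The limits of 5 and 30 counts set the membership of several genes. Just inside the lower limit were Gm15915, BC051142 and A530032D15Rik, with at least 32, 33 and 34 counts in every MRL/lpr kidney, and just outside were Spic (29), Gm2427 (28) and Ly6a2 (28). Just inside the upper limit were Podnl1 and Slamf6 (5 counts in a Ctr kidney) and Apoh (4), and just outside were Rps18-ps4, Gm7592 and Treml4 (6 each). Read in the Lpr kidneys alone, the limits were met by 38 genes, of which 31 (81.6%) also met them in DNase. Read in the DNase kidneys alone, they were met by 56 genes, of which 31 (55.4%) also met them in Lpr. The opposite pattern, at least 30 counts in every Ctr kidney and at most 5 in every MRL/lpr kidney, was held by 13 genes. Members lay on 14 chromosomes, with 5 on chromosome 1 and no pair beside each other. The closest pair, Clec4e and Gdf3, was 671702 bases apart.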

How the data were processed

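The authors deposited raw, whole-number gene counts of 11 kidney libraries, for which the submitters' processing notes name fastp, HTSeq and mm10. The aligner, annotation and strand setting are not given in the sources used here. The deposited FPKM values come from the same counts and were used to compare levels between genes. All columns were used (0 unused).

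Members and gene lists were chosen with earlier results of these data known, and roles were assigned by hand after the members were known. Groups were compared in pairs with edgeR 4.0.16 (quasi-likelihood, TMM, filterByExpr, R 4.3.3), adjusted over all genes tested (Benjamini-Hochberg), and a gene was called where the adjusted p was below 0.05 and log2 fold change above 2 in size. For log2 CPM the prior count was 2. Totals of 33469858 to 38460873 counts make a count of 3 per library the floor, and floors and 95% counting intervals (exact, for a ratio of counts) cover counting error only. The p-values set a difference between groups against the spread between mice, which edgeR estimates with help from all genes.

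The rule for named genes took members of the hand-written lists, those with the highest FPKM, the narrowest range, the highest r with the leukocyte score, the smallest p for treatment in each direction, or no count in Ctr, and those nearest the limits. It also named Mybphl, AI506816 and Ifi202b, and the 5 other genes most like the summed members. The remaining members were described as well.

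Positions and promoters came from RefSeq (GRCm38.p6), in which all 31 members were found. Gm46290 lies on a patch and was not placed. Copies were searched with blastn 2.17.0+ at 95% identity over 70% of the transcript, and figures used matplotlib 3.10.9. Alternatives were DESeq2 1.42.0, limma 3.58.1 on log2(FPKM + 1) and log2(FPKM + 0.1), other normalizations, filters and limits, a replicate block and each library left out. On simulated data with a log2 fold change of 3, which says nothing of smaller changes, 195 of 200 changed genes were recovered with 5 false calls for DNase against Lpr, among 15832 genes, and 185 of 200 with 4 for Lpr against Ctr, among 16074.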

Additional observations from a re-analysis of the deposited data

Results flagged for a closer look

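In each of the 62 groups of 4 kidneys (31 members, Lpr and DNase), the highest or lowest kidney was checked for a gap to its nearest neighbour beyond Dixon's 95% critical value. It stood apart in 6 groups, or 9.68%. The critical value sets about 1 in 20 apart among independent, normally distributed values. These groups share their libraries, so that share is no valid chance rate here. Among Lpr kidneys, replicate 2 was high in 3 T lymphocyte genes: Gpr171 had 7.77 CPM (the others 1.02 to 2.00), Icos 6.31 CPM (1.34 to 2.00) and Tigit 3.99 CPM (1.11 to 1.41). Replicate 3, the library whose counts fell with gene length, was high in Ly6i, at 5.29 CPM against 1.79 to 2.08. Among DNase kidneys, Gdf3 was low in replicate 1, at 1.60 CPM against 4.48 to 4.91, and Sirpb1c was high in replicate 3, at 3.09 CPM against 1.46 to 1.60. DNase replicate 1 had the lowest leukocyte score of the MRL/lpr kidneys (4.41) and replicate 3 the highest of the DNase kidneys (5.20). The part of the score in these values was not tested.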

How the results depend on the processing

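The number of members moved with the limits: 54 at no more than 10 counts in Ctr, 53 at 20 counts or more in MRL/lpr, 14 at 50 counts or more and 56 in the DNase kidneys alone, and 31 to 44 with each library left out. A ratio limit of 1.5 left 0 steady members and one of 3 gave 11, with 3 to 6 when libraries were left out (6 without Lpr replicate 2). An r of at least 0.8 left 3 that followed the leukocyte score, and 5 to 9 did when libraries were left out. In the treatment comparison 0 members were called under each of 18 alternatives, and the lowest adjusted p of a member was 0.31. At an unadjusted p under 0.05, upper quartile normalization, DESeq2 and both limma fits gave 2 members higher, and leaving out libraries 1 to 2. For members lower in DNase, upper quartile normalization and the fit of all 3 groups gave 0, DESeq2 gave 3, no filter 2, and leaving out libraries 0 to 3. The shares of all genes under these alternatives are not given here, so these counts cannot be set against a background. The 10 members with the smallest p for treatment, 5 in each direction, kept their direction in all 158 values. Members picked this way are unlikely to change direction, and those with a larger p were not followed in the same way. The alternatives for neighbours were chosen after seeing the data: leaving out libraries gave 5 to 10 called higher, 4 to 7 of them beside members with leukocyte roles, with the lowest values without Ctr replicate 2. Clec4d, Ctla4, Gm38510 and Sirpb1b lost their calls when a Ctr kidney was left out, as did Gm42226, which also lost it without Lpr replicate 3, and Ctla4 also with DESeq2. The background of genes in the members' range of counts was likewise added after seeing the data.

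Same-numbered Lpr and DNase kidneys deviated together with correlations of 0.03, 0.14, 0.18 and -0.12. No pairing by number was seen, but correlations of this size cannot exclude one. With a replicate block, 0 members were called, 2 were higher and 1 lower at an unadjusted p under 0.05, and 10 neighbours were called higher. The shares of all genes are again not given for this fit. Where the cause of a changed count was not fewer samples or another limit, the cause was not tested. Counting error is large for the Ctr counts, which set every ratio to Ctr.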

Other observations

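The genes outside the 31 whose CPM was most like the summed CPM of the members over the 11 kidneys were Cd8a (r = 0.995), Gm13212 (0.993), Gm12407 (0.993), Cd5l (0.992) and LOC118567481 (0.991), values that mostly reflect the gap between Ctr and MRL/lpr. Cd8a, the coreceptor of cytotoxic T cells, had 1.34, 1.63 and 1.92 CPM in Ctr, 27.9, 35.1, 36.3 and 29.7 CPM in Lpr and 26.99, 28.5, 38.9 and 26.3 CPM in DNase. Ifi202b, an interferon-inducible gene known to differ between strains, was no member because Ctr had 20, 14 and 2 counts, against 457, 557, 506 and 275 in Lpr and 209, 321, 322 and 327 in DNase. On the hand-written list of genes known to differ between C57BL/6 and other strains, 7 of 30 tested were called higher and 2 lower in Lpr against Ctr, and none was a member. Of the interferon-induced genes listed, 22 of 48 were called higher and 1 lower in Lpr against Ctr and 15 of 48 higher and 1 lower in DNase against Ctr, and none was a member.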
